A study of Mus musculus with 15 samples.

Results

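Chemokines and chemokine receptors were followed in the messenger RNA of mouse hepatocyte preparations. The members were all genes whose mouse symbol begins with Ccl, Ccr, Cxcl, Cxcr, Cx3cl, Cx3cr, Xcl, Xcr or Ackr directly followed by a number, which gave 63 of the 56953 gene IDs in the files. They comprised 38 ligands, 19 signalling receptors, 4 atypical receptors and 2 pseudogenes. The 15 libraries came from 4 groups: 4 from ΔEGFR mice given carbon tetrachloride (CCl4), 4 from ΔEGFR mice given mineral oil, 3 from wild-type (WT) mice given CCl4 and 4 from WT mice given mineral oil. All are labelled as primary mouse hepatocytes. CCl4 is a liver toxin that hepatocytes convert to a reactive radical, and mineral oil is its usual carrier. The ΔEGFR transgene bears the name of the receptor for epidermal growth factor. The labels used here do not give its promoter, the strain, sex or age of the mice, the dose, the duration or whether a library holds 1 mouse or a pool. By its title, the study concerns the EGFR pathway and interactions between cells in liver fibrosis.

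Chemokines are small secreted proteins that bind seven-helix receptors coupled to inhibitory G proteins and steer migrating cells along their gradient. Atypical receptors bind the same ligands without that coupling and remove or move them. In injured liver, ligands of the CCR2 and CX3CR1 receptors act on monocytes and macrophages, ligands of CXCR2 on neutrophils, and ligands of CXCR3 and CXCR6 on lymphocytes. Hepatocytes are themselves known to make some ligands, while most receptors sit on leukocytes. The ligands were therefore divided by textbook source into 10 reported in hepatocytes as well as in other cells, 14 made mainly by leukocytes and 14 made mainly by stroma, endothelium or other epithelium.

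Levels are given as TPM, a measure of transcript abundance adjusted for transcript length and library size. Differences are log2 fold changes of counts, CCl4 over mineral oil or ΔEGFR over WT, with their standard error, and a gene was called when its edgeR quasi-likelihood p, adjusted over all 17975 genes tested, was under 0.05. The libraries held between 51.7 and 155.4 M counts. Group medians were 108.5 M in ΔEGFR CCl4, 131.7 M in ΔEGFR oil, 57.4 M in WT CCl4 and 61.05 M in WT oil libraries. Depth thus differed between the genotypes, and WT oil replicate 1, at 135.5 M, was the deepest of its group. Summed over the 11 hepatocyte markers found, the level was 44800 to 116000 TPM in every library, and markers of other liver and blood cells were present as well. Taken singly, all 11 hepatocyte markers had negative log2 fold changes for CCl4 in both genotypes. Their median was −0.87 in ΔEGFR, with 2 called lower, and −0.98 in WT, with 5 called lower. The 12 macrophage markers summed to 1620 to 5990 TPM in ΔEGFR CCl4 libraries, against 29.2 to 912 TPM in ΔEGFR oil libraries, and to 2030 to 5920 TPM in WT CCl4 libraries, against 79.4 to 1490 TPM in WT oil libraries. WT oil replicate 1 stood apart from the other libraries. Its first principal component of −62.4 lay among those of the CCl4 libraries, its 8 neutrophil markers summed to 5350 TPM against 5.79 to 76.0 TPM in the other WT oil libraries, and its leukocyte marker score, the mean log2 CPM of 56 markers, was the highest of all at 4.61. Results for WT oil are therefore given with and without it. This library was picked after its values were seen, and libraries at the low end of the score were kept. Leaving it out lowers the WT oil levels of the leukocyte markers that set it apart. Adjusted p values without it are therefore a description only. In bulk RNA, a change in the number of cells of a type and a change in RNA per cell cannot be told apart.

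Few members passed the test for CCl4. Cx3cr1, the receptor for fractalkine on monocytes and macrophages, and Cxcl5, a neutrophil attractant, rose in WT, and Ccl8, a ligand made by macrophages, rose in ΔEGFR. That is 2 of the 50 members tested in WT, where 12.5% of all genes tested were called, and 1 of 50 in ΔEGFR, where 4.15% were called. No member fell in either genotype. Both shares of members, 2% in ΔEGFR and 4% in WT, were below those of all genes. By the direction of calls, 1.77% of all genes rose and 2.38% fell in ΔEGFR, and 5.31% rose and 7.2% fell in WT. Without WT oil replicate 1, 13 of 49 members tested rose in WT, where 14.5% of all genes rose and 28.7% were called in either direction. These 13 were Ackr3, Ccl3, Ccl4, Ccl6, Ccr1, Ccr2, Ccr7, Cx3cr1, Cxcl16, Cxcl2, Cxcl5, Cxcr2 and Cxcr4. Because the library was picked after its values were seen, these 13 calls are a description only. In ΔEGFR the only member called without that library was Ccl8, beside 12.1% of all genes called and 5.57% higher. Counts differed with the method. DESeq2 called 4 members in ΔEGFR, where it called 13.4% of all genes, and 6 in WT, where it called 20.2%. Limma on log2(TPM + 1) called 6 members in ΔEGFR (12.6% of all genes) and 11 in WT (17.9%). With the leukocyte marker score as a covariate in edgeR, 0 members were called in ΔEGFR (3.54% of all genes) and 9 in WT (9.02%), of which Ackr3, Ccl3, Ccr2, Cx3cr1 and Cxcl16 rose and Ccr4, Cxcr1, Cxcr6 and Xcl1 fell. WT oil replicate 1 held 2157 of the 2196 WT oil counts of Cxcr6 and 465 of the 489 of Xcl1. It also held 487 of the 493 of Cxcr1 and 253 of the 261 of Ccr4. The covariate fit was not run without that library. With no scaling factor, 1 member was called in ΔEGFR (6.56% of all genes) and 4 in WT (15.8%).

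**Figure D1:**
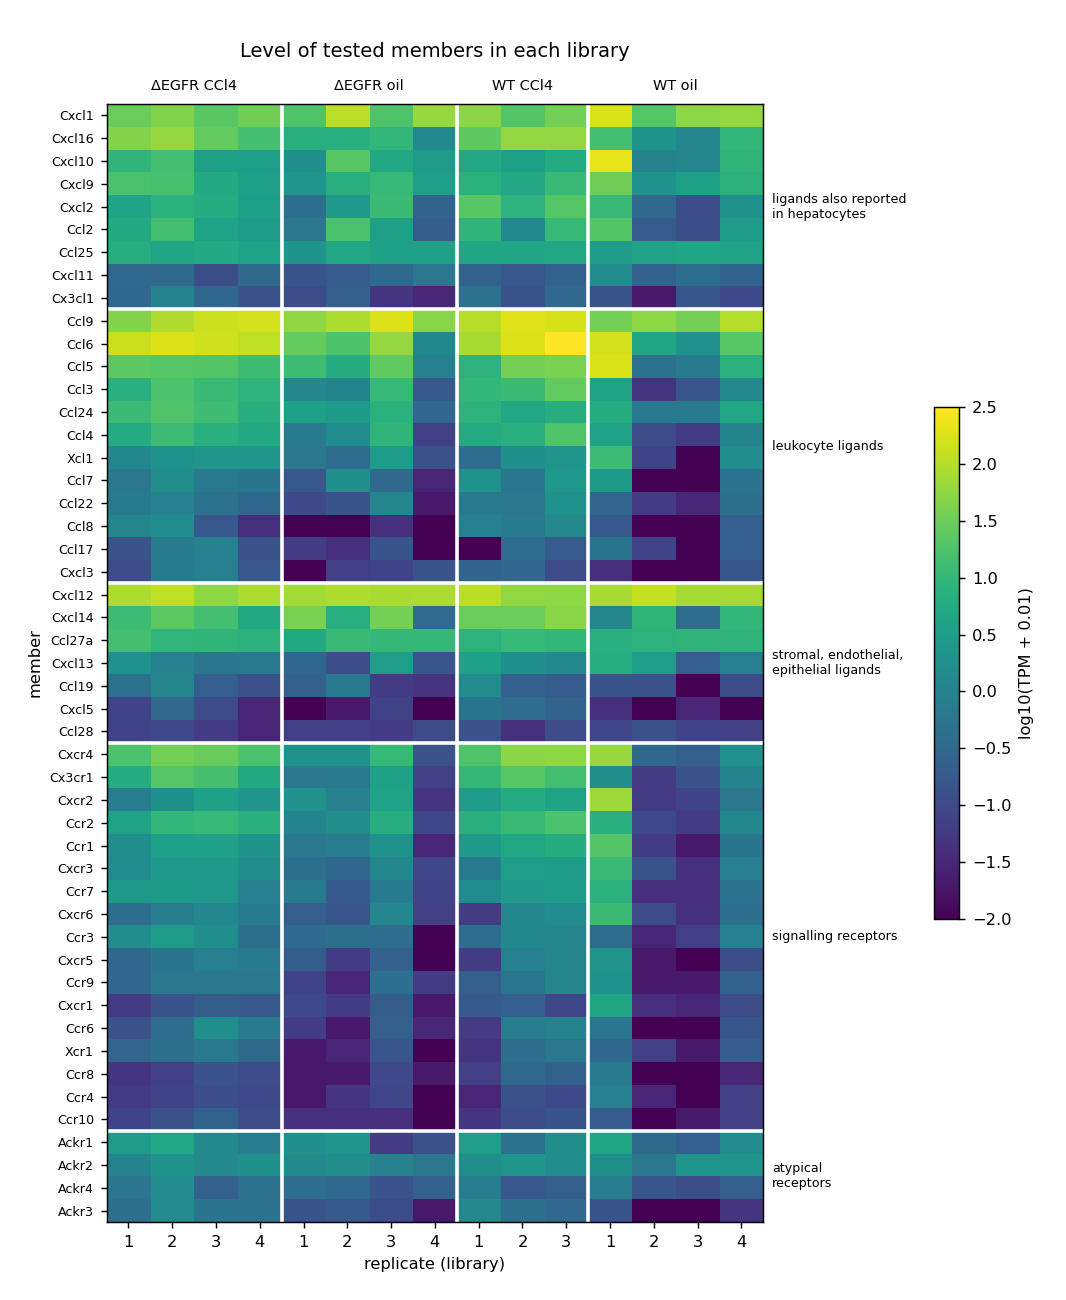
Level of 49 of the 50 tested members (rows, grouped by class and ordered by mean level) in each of the 15 libraries (columns, grouped and numbered by replicate), as log10(TPM + 0.01) on the colour scale. Cxcl12, Ccl9 and Cxcl1 are bright in every library, whereas the signalling receptors are dark in WT oil replicates 2 and 3 and ΔEGFR oil replicate 4 and bright in WT oil replicate 1.

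The most abundant ligands were Ccl6, Ccl9, Cxcl12 and Cxcl1, which together held 71.3 ± 8.63% of ligand TPM in ΔEGFR CCl4 libraries, 76.3 ± 9.23% in ΔEGFR oil libraries, 69.2 ± 0.946% in WT CCl4 libraries and 74.9 ± 19.8% in WT oil libraries (SD, n = 4, 4, 3 and 4). Over the 15 libraries the highest level of Cxcl12 was 2.38 times its lowest, that of Ccl27a 2.76 times, of Ccl25 3.04 times and of Ackr2 3.77 times. At the other end, Cxcr2 varied 1700-fold and Ccr1 1990-fold. These 4 steady genes were 3 ligands and 1 atypical receptor, and the 2 that varied widely are receptors of myeloid cells. In all, 33 members reached a group mean of at least 1 TPM in 1 group or more.

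Cxcl1 and Cxcl2 encode ligands of CXCR2, the main neutrophil chemokine receptor, and Cxcl3 is a close relative. In many cells their genes are switched on by NF-kB, a transcription factor of inflammation, and Cxcl10 by interferon through the interferon-stimulated response element. The RefSeq promoter sequences (GRCm38.p6, gene strand, ending at the base before the start) are shown because Cxcl1, Cxcl2 and Cxcl3 carry the same NF-kB letters while their levels differed widely in these libraries. Capitals mark the match.
Cxcl1 (chr5:90891095-90891244, plus strand): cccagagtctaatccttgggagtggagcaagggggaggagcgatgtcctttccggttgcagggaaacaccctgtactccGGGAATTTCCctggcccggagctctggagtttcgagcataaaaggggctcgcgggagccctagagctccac
Cxcl2 (chr5:90903749-90903898, plus strand): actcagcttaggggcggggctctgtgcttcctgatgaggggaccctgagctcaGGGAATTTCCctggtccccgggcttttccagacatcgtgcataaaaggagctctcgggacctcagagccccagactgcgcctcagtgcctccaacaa
Cxcl3 (chr5:90785951-90786100, plus strand): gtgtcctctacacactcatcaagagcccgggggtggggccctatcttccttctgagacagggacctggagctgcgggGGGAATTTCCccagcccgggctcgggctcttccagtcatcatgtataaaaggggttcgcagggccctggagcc
Cxcl10 (chr5:92348890-92349139, minus strand): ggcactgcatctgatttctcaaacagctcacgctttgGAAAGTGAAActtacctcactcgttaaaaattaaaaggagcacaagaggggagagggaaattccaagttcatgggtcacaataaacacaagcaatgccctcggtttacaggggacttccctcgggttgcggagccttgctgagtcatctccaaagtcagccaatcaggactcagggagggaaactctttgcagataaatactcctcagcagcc
In the first 3 the capitals are a match to GGGA, any base, then TTTCC, at positions −71 to −62 in Cxcl1, −97 to −88 in Cxcl2 and −73 to −64 in Cxcl3. In Cxcl10 they are a match to TTTC, any 2 bases, then TTTC on the opposite strand, at positions −213 to −204. Both strands were searched in windows of 250 bases before to 50 after the start, for 46 members with 53 windows. The NF-kB letters were found in 4 members (Ccr3, Cxcl1, Cxcl2 and Cxcl3) and in 0.411% of all 32851 windows. The interferon letters were found in 3 members (Ccl19, Cxcl10 and Cxcl14) and in 3.44% of all windows, and a STAT site form, TTC and GAA parted by any 3 bases, in 4 members (Ccl17, Ccr1l1, Ccr6 and Cxcl14) and in 8.3%. A match describes the letters alone. Only these letter forms were searched, so a promoter without a match, that of Cxcl10 for NF-kB included, may hold other forms of the same site.

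Cxcl1 was among the most abundant ligands in every group. It had 29.8, 45.1, 22.3 and 34.03 TPM in ΔEGFR CCl4 libraries, against 18.03, 111, 17.99 and 63.4 TPM in ΔEGFR oil libraries. In WT it had 52.7, 20.1 and 36.4 TPM in WT CCl4 libraries, against 174, 20.4, 55.3 and 61.3 TPM in WT oil libraries. The groups overlapped in both genotypes, and the highest value was that of WT oil replicate 1. The log2 fold change for CCl4 was −1.2 ± 0.59 in ΔEGFR (adjusted p = 0.227) and −1.56 ± 0.66 in WT (adjusted p = 0.138), and neither passed.

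Cxcl2, with the same 10 letters in its promoter, was lower and more variable than Cxcl1. It had 4.29, 7.8, 6.13 and 3.5 TPM in ΔEGFR CCl4 libraries, against 0.45, 2.55, 11.5 and 0.26 TPM in ΔEGFR oil libraries. Its WT levels were 21.8, 8.01 and 20.3 TPM in WT CCl4 libraries, against 10.6, 0.35, 0.11 and 1.88 TPM in WT oil libraries. All 4 ΔEGFR CCl4 libraries lay below all 3 WT CCl4 libraries, while within ΔEGFR the treated and oil libraries overlapped. The CCl4 log2 fold change was 0.47 ± 1.09 in ΔEGFR and 1.95 ± 1.18 in WT, with adjusted p of 0.821 and 0.298. Without WT oil replicate 1 Cxcl2 rose in WT by 4.04 ± 1.13 (adjusted p = 0.0219). Cxcl3 did not exceed 0.84 TPM in any library. Reads of these 3 similar genes can be hard to assign, so their separate levels are uncertain.

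Cxcl16, a membrane-bound ligand of CXCR6 that can be shed, was higher in every CCl4 library than in every oil library of its genotype. It had 46.3, 62.6, 26.2 and 14.5 TPM in ΔEGFR CCl4 libraries, against 6.67, 7.05, 9.53 and 1.32 TPM in ΔEGFR oil libraries. For WT the values were 24.7, 58.9 and 59.7 TPM in WT CCl4 libraries, against 14.5, 2.09, 1.16 and 9.45 TPM in WT oil libraries. The lowest ΔEGFR CCl4 value and the highest WT oil value, both 14.5 TPM, belonged to different genotypes. The log2 fold change was 2.09 ± 0.73 in ΔEGFR (adjusted p = 0.11) and 2.41 ± 0.77 in WT (adjusted p = 0.055), just outside the threshold in WT. It was called in WT in 7 of 25 other settings, among them the one without WT oil replicate 1 (3.11 ± 0.80, adjusted p = 0.0159) and the one with the leukocyte marker score as a covariate (1.62 ± 0.45, adjusted p = 0.0419). Cxcl16 overlaps Zmynd15 on the opposite strand.

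The interferon-induced ligands of CXCR3, Cxcl9, Cxcl10 and Cxcl11, were dominated by 1 library. Cxcl10 had 8.86, 14.1, 3.67 and 3.28 TPM in ΔEGFR CCl4 libraries, against 1.73, 21.3, 4.93 and 2.95 TPM in ΔEGFR oil libraries. WT preparations held 5.12, 3.67 and 5.78 TPM in WT CCl4 libraries, against 226, 1.02, 1.13 and 8.88 TPM in WT oil libraries. WT oil replicate 1 held the highest level of any library and the other 14 lay between 1.02 and 21.3 TPM, with no separation of the groups. Cxcl9 had 15.9, 15.6, 5.57 and 3.79 TPM in ΔEGFR CCl4 libraries, against 2.17, 6.63, 10.4 and 3.44 TPM in ΔEGFR oil libraries, and 7.62, 5.26 and 11.04 TPM in WT CCl4 libraries, against 33, 2.08, 3.62 and 7.94 TPM in WT oil libraries. Its highest value was again WT oil replicate 1. For CCl4 the log2 fold change of Cxcl10 was −0.25 ± 1.25 in ΔEGFR and −3.95 ± 1.58 in WT, and that of Cxcl9 0.32 ± 0.74 and −1.23 ± 0.82, with adjusted p between 0.118 and 0.922. Without WT oil replicate 1 the WT values were −0.29 ± 0.91 for Cxcl10 and 0.32 ± 0.54 for Cxcl9. Cxcl11 stayed at or under 1.48 TPM and was the 1 member lower in every WT CCl4 library than in every WT oil library by CPM, the count scaled to library size (−1.93 ± 0.70, adjusted p = 0.0861), where 11.9% of all genes were. In TPM its WT groups overlapped, at 0.16 to 0.26 TPM with CCl4 against 0.25 to 1.48 TPM with oil. Cxcl11 overlaps Gm2673 on the opposite strand.

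Ccl2, the CCR2 ligand that draws monocytes, had 5.6, 13.7, 4.12 and 3.06 TPM in ΔEGFR CCl4 libraries, against 0.61, 15.95, 3.56 and 0.20 TPM in ΔEGFR oil libraries. In WT it had 8.81, 1.39 and 10.2 TPM in WT CCl4 libraries, against 20.1, 0.19, 0.11 and 3.08 TPM in WT oil libraries. The groups overlapped in both genotypes, with the highest values in WT oil replicate 1 and ΔEGFR oil replicate 2. Its log2 fold change was −0.03 ± 1.35 in ΔEGFR and −0.30 ± 1.47 in WT, or 2.12 ± 1.39 in WT without WT oil replicate 1 (adjusted p = 0.262). Cx3cl1, or fractalkine, the membrane-bound ligand of Cx3cr1, had 0.32, 1.0, 0.32 and 0.13 TPM in ΔEGFR CCl4 libraries, against 0.10, 0.22, 0.04 and 0.02 TPM in ΔEGFR oil libraries, and 0.46, 0.14 and 0.34 TPM in WT CCl4 libraries, against 0.14, 0.01, 0.15 and 0.09 TPM in WT oil libraries. It never exceeded 1 TPM and its groups overlapped in TPM in both genotypes, with a log2 fold change of 1.38 ± 0.81 in ΔEGFR and 1.78 ± 0.88 in WT (adjusted p = 0.304 and 0.203). By CPM its WT groups did not overlap, with 0.277 the lowest CCl4 value and 0.268 the highest oil value. Ccl25, a ligand of CCR9 on gut-homing lymphocytes, ran from 2.1 to 6.39 TPM over all libraries, and Ccl20 had 0 to 5 counts in a library and was not tested.

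Of the ligands made mainly by leukocytes, Ccl6 and Ccl9 were the most abundant. Both belong to a rodent group of CCR1 ligands made by macrophages and other myeloid cells. Ccl6 had 136, 180.38, 150.2 and 116 TPM in ΔEGFR CCl4 libraries, against 27.9, 17.7, 60.2 and 1.23 TPM in ΔEGFR oil libraries. Its WT levels were 83.1, 180.45 and 328 TPM in WT CCl4 libraries, against 158, 4.47, 1.85 and 21.5 TPM in WT oil libraries. The ΔEGFR groups did not overlap, and in WT the oil library that overlapped was replicate 1. On the log2 scale, CCl4 over oil was 1.92 ± 1.14 in ΔEGFR (adjusted p = 0.311) and 1.6 ± 1.19 in WT (adjusted p = 0.402), and without WT oil replicate 1 it rose in WT by 3.87 ± 1.09 (adjusted p = 0.0224).

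Ccl9 had 46.3, 90.3, 144 and 154 TPM in ΔEGFR CCl4 libraries, against 57.4, 86.6, 179.63 and 50.9 TPM in ΔEGFR oil libraries. For WT the values were 106, 189.53 and 169 TPM in WT CCl4 libraries, against 36.6, 54.3, 36.2 and 100.41 TPM in WT oil libraries. The groups overlapped in ΔEGFR, and in WT the lowest CCl4 library was just above the highest oil library in TPM. By CPM the WT groups overlapped, with WT CCl4 replicate 1 at 93.1 and WT oil replicate 4 at 99.4. Its log2 fold change was −0.15 ± 0.41 in ΔEGFR and 0.89 ± 0.44 in WT (adjusted p = 0.848 and 0.2). In the 3 libraries with the lowest leukocyte marker scores (−1.42, −1.41 and −0.49), Ccl9 was still at 36.2, 50.9 and 54.3 TPM, while Ccl6 was at 1.85, 1.23 and 4.47 TPM. In WT oil replicate 1, with the highest score, Ccl9 was at 36.6 TPM and Ccl6 at 158 TPM. These 4 libraries were picked as the ends of the score, and the relation was not tested.

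**Figure D2:**
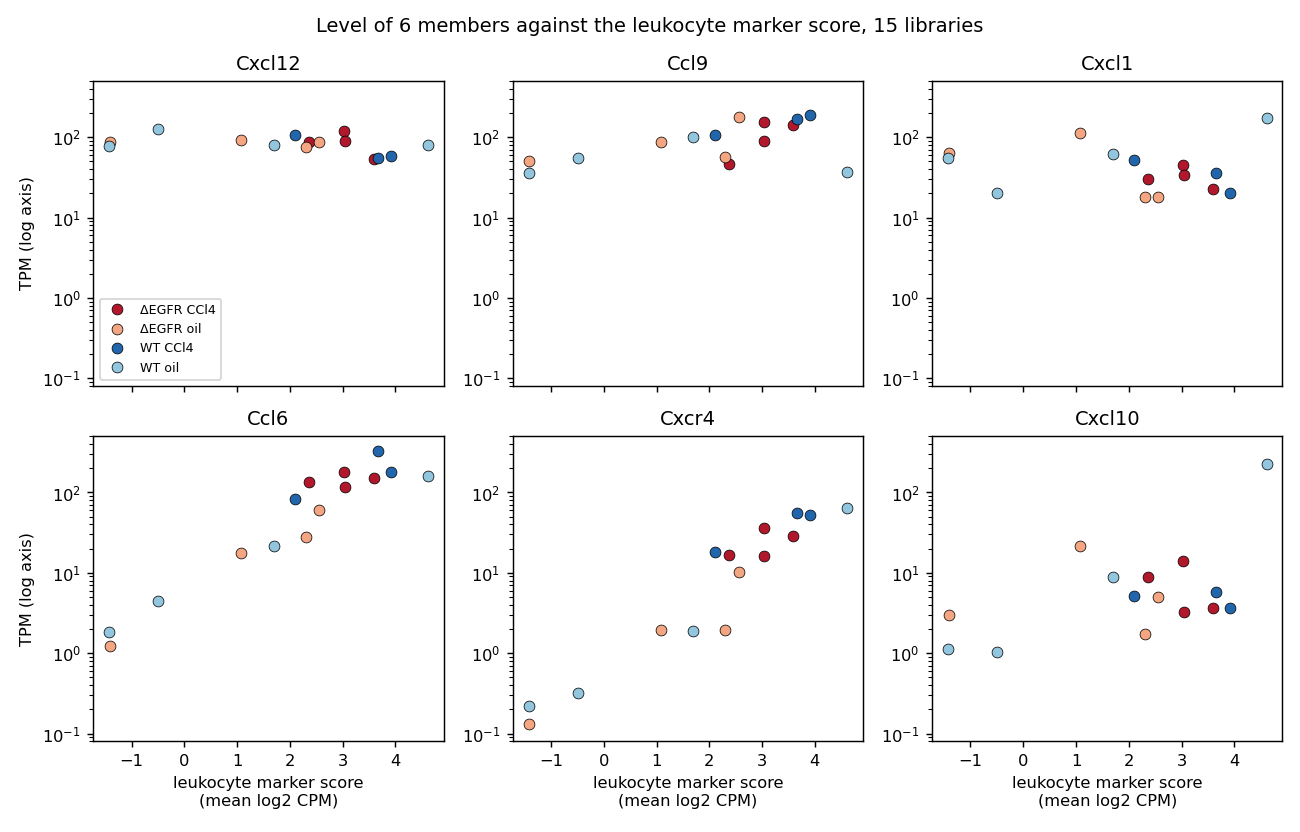
Level of 6 members (vertical log axes, TPM) against the leukocyte marker score (horizontal axis, mean log2 CPM of 56 markers), 1 point for each of the 15 libraries, coloured by group. Cxcl12 and Cxcl1 show no climb with the score, Ccl6 and Cxcr4 climb from their lowest values at scores under −1 to over 60 TPM at 4.61, and Cxcl10 has 1 high point, WT oil replicate 1 at 226 TPM.

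Ccl5, a ligand made by T and natural killer cells, had 23.5, 20.2, 19.8 and 12.7 TPM in ΔEGFR CCl4 libraries, against 12.7, 6.1, 25.3 and 0.90 TPM in ΔEGFR oil libraries. WT preparations held 8.15, 36.5 and 38.7 TPM in WT CCl4 libraries, against 175, 0.46, 0.72 and 7.36 TPM in WT oil libraries. The value of WT oil replicate 1 was over every other library, and its 12 T and natural killer cell markers summed to 212 TPM against at most 40.6 TPM in all other libraries. The log2 fold change of Ccl5 was 0.22 ± 1.35 in ΔEGFR and −1.23 ± 1.5 in WT, and 2.82 ± 1.09 in WT without that library (adjusted p = 0.0687). Ccl3, a CCR1 ligand of activated macrophages, had 7.08, 16.9, 10.6 and 8.06 TPM in ΔEGFR CCl4 libraries, against 1.21, 1.05, 10.4 and 0.17 TPM in ΔEGFR oil libraries. In WT it had 9.44, 11.6 and 26.5 TPM in WT CCl4 libraries, against 3.98, 0.04, 0.15 and 1.28 TPM in WT oil libraries. The WT groups did not overlap, and in ΔEGFR oil replicate 3 lay among the CCl4 libraries. Its log2 fold change was 1.35 ± 1.09 in ΔEGFR (adjusted p = 0.459) and 3.0 ± 1.2 in WT (adjusted p = 0.117), and without WT oil replicate 1 it rose in WT by 4.51 ± 1.27 (adjusted p = 0.0222).

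Ccl8, a ligand made by macrophages, was the 1 member called in ΔEGFR, on few reads. It had 36, 33, 2 and 1 counts in ΔEGFR CCl4 libraries, against 0, 0, 1 and 0 counts in ΔEGFR oil libraries. In TPM the treated libraries were at 1.15, 1.51, 0.16 and 0.03 and the oil libraries at 0, 0, 0.03 and 0. Nearly all counts came from 2 of the 4 treated libraries, and the other 2 were close to the oil libraries. The 72 counts against 1 give a ratio per total count of 92.8, with a 95% interval of 16.1 to 3720 that covers counting error only. The fitted log2 fold change was 5.33 ± 1.27 (adjusted p = 0.0391), a size that depends on the prior count. Macrophage markers moved with it, as given above, and their part in the result was not tested. The call was lost in 11 of 23 other settings, where adjusted p ran from 0.00366 to 0.114 in all. In WT, Ccl8 had 0.91, 0.71 and 1.29 TPM in WT CCl4 libraries, against 0.16, 0, 0 and 0.21 TPM in WT oil libraries, with no overlap and a log2 fold change of 2.73 ± 1.06 (adjusted p = 0.107). The other tested leukocyte ligands were Ccl4, Ccl24, Ccl7, Ccl17, Ccl22, Xcl1 and Cxcl3. Among them Ccl24, an eosinophil ligand made by macrophages, reached 18.2 TPM in ΔEGFR CCl4 replicate 2 and Ccl4 reached 18.01 TPM in WT CCl4 replicate 3. None of them passed the test with all libraries, and without WT oil replicate 1 Ccl4 rose in WT by 4.18 ± 1.3 (adjusted p = 0.0323).

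Cxcl12, a ligand of CXCR4 that holds blood and immune cells in place, was classed as stromal by textbook source and was the steadiest member. It had 87.2, 119, 53.4 and 88.9 TPM in ΔEGFR CCl4 libraries, against 75.04, 92.2, 86.3 and 87.4 TPM in ΔEGFR oil libraries. Its WT levels were 106, 58.9 and 54.6 TPM in WT CCl4 libraries, against 80.4, 127, 77.95 and 79.7 TPM in WT oil libraries. All 15 libraries lay within 53.4 to 127 TPM and the groups overlapped. Over the same libraries the stellate marker sum ran from 12.7 to 387 TPM and the endothelial marker sum from 26.5 to 320 TPM. In WT oil replicates 2 and 3, with stellate sums of 13.9 and 12.7 TPM, Cxcl12 was at 127 and 77.95 TPM. The cell source of Cxcl12 was not tested. By edgeR, the log2 fold change was −0.62 ± 0.30 in ΔEGFR (adjusted p = 0.221) and −0.81 ± 0.33 in WT (adjusted p = 0.125). Ccl27a, a skin-homing ligand of CCR10, had 15.01, 9.29, 8.84 and 7.74 TPM in ΔEGFR CCl4 libraries, against 5.44, 11.3, 9.76 and 9.84 TPM in ΔEGFR oil libraries, and 8.08, 10.4 and 9.62 TPM in WT CCl4 libraries, against 6.51, 7.99, 8.35 and 8.37 TPM in WT oil libraries. Its log2 fold changes of −0.39 ± 0.23 in ΔEGFR and −0.23 ± 0.25 in WT turned positive without a scaling factor. Ccl27a overlaps Il11ra1 on the opposite strand and has a near copy in Ccl27b.

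Cxcl14, a chemokine of epithelia and fibroblasts, was the 1 member with an unadjusted p under 0.05 for the interaction of genotype and CCl4. It had 12.3, 23.6, 14.1 and 5.67 TPM in ΔEGFR CCl4 libraries, against 38.9, 6.93, 36.8 and 0.36 TPM in ΔEGFR oil libraries. For WT the values were 30.5, 30.4 and 50.6 TPM in WT CCl4 libraries, against 1.15, 8.74, 0.38 and 9.71 TPM in WT oil libraries. The WT groups did not overlap, the ΔEGFR groups did, and all 4 ΔEGFR CCl4 libraries lay below all 3 WT CCl4 libraries. The log2 fold change for CCl4 was −1.31 ± 1.09 in ΔEGFR (adjusted p = 0.476) and 2.35 ± 1.18 in WT (adjusted p = 0.206). The difference between these changes was −3.66 ± 1.6, with an unadjusted p of 0.0399 and an adjusted p of 1. ΔEGFR over WT in CCl4 was −1.44 ± 1.15 (adjusted p = 1). The ΔEGFR oil libraries spread from 0.36 to 38.9 TPM, and neither genotype comparison nor the interaction passed the test for Cxcl14.

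Cxcl5, a CXCR2 ligand of epithelium and activated stroma, was called in WT from a low level. It had 0.55, 0.40 and 0.26 TPM in WT CCl4 libraries, against 0.03, 0, 0.02 and 0 TPM in WT oil libraries. In ΔEGFR it had 0.07, 0.35, 0.10 and 0.02 TPM in ΔEGFR CCl4 libraries, against 0, 0.01, 0.07 and 0 TPM in ΔEGFR oil libraries. The WT groups did not overlap and the ΔEGFR groups did. The log2 fold change was 2.27 ± 1.04 in ΔEGFR (adjusted p = 0.196) and 4.37 ± 1.19 in WT (adjusted p = 0.0315), and the WT call was lost in 7 of 24 other settings, with adjusted p from 0.00563 to 0.0779 in all. With the leukocyte marker score as a covariate it was 4.17 ± 1.26 (adjusted p = 0.056). Sums of cholangiocyte and stellate cell markers, of cells outside the leukocyte score, were also higher with CCl4 in WT. The 8 cholangiocyte markers summed to 522 to 1230 TPM in WT CCl4 libraries, against 85.5 to 172 TPM in WT oil libraries. By log2 fold change 5 of these 8 were positive and 3 negative. The 10 stellate markers, all with positive log2 fold changes, summed to 74.1 to 256 TPM, against 12.7 to 66.6 TPM. In ΔEGFR, where the Cxcl5 groups overlapped, the cholangiocyte sum was 369 to 1050 TPM with CCl4, against 81.6 to 275 TPM with oil. The stellate sum there was 97.5 to 387 TPM, against 14.7 to 98.7 TPM. The part of these markers in the result was not tested. Ccl19, Ccl28 and Cxcl13, the other tested ligands of this class, stayed at or under 6.31 TPM and none passed.

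**Figure D3:**
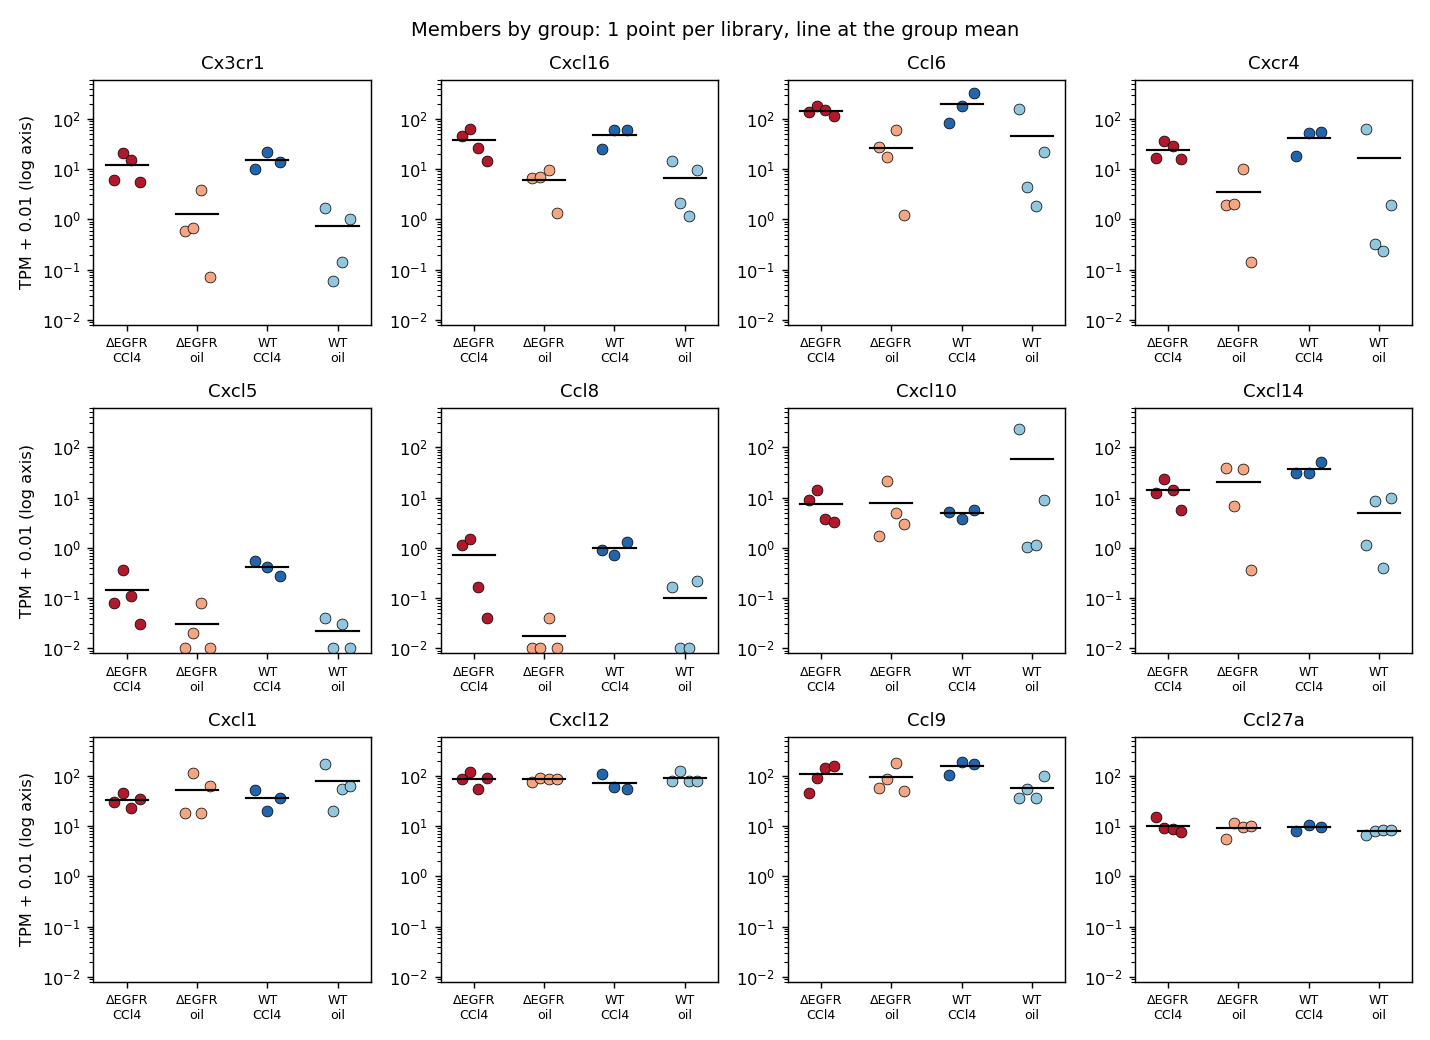
TPM + 0.01 on a log axis for 12 members in the 4 groups, with 1 point per library and a line at the group mean. Cx3cr1 and Cxcl16 are higher in every CCl4 library than in every oil library of the same genotype, Cxcl12 stays between 53.4 and 127 TPM in all 15 libraries, and the WT oil means of Ccl6, Cxcr4 and Cxcl10 are set by WT oil replicate 1.

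Cx3cr1 was the 1 receptor called with all 15 libraries, in WT. It had 6.14, 20.5, 15.02 and 5.63 TPM in ΔEGFR CCl4 libraries, against 0.59, 0.65, 3.81 and 0.06 TPM in ΔEGFR oil libraries. WT preparations held 10.03, 21.4 and 13.6 TPM in WT CCl4 libraries, against 1.67, 0.05, 0.13 and 1.01 TPM in WT oil libraries. Treated and oil libraries did not overlap in either genotype, and the value of WT oil replicate 1, 1.67 TPM, was far below every CCl4 library. On the log2 scale, CCl4 over oil was 2.76 ± 1.03 in ΔEGFR (adjusted p = 0.127) and 3.92 ± 1.11 in WT (adjusted p = 0.0374), and the WT value was 4.84 ± 1.23 without WT oil replicate 1 (adjusted p = 0.0153). Macrophage markers moved with it, as given above. With the leukocyte marker score as a covariate, the change was 1.85 ± 0.56 in ΔEGFR (adjusted p = 0.0897) and 2.94 ± 0.68 in WT (adjusted p = 0.0207). The WT call was lost in 10 of 25 other settings, with adjusted p from 0.00164 to 0.104 in all, and leaving out any 1 of the 3 WT CCl4 libraries ended it. Cx3cr1 overlaps Gm33858 on the opposite strand.

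Cxcr4, the receptor of Cxcl12 found on most leukocytes, had 16.6, 35.99, 28.4 and 16.1 TPM in ΔEGFR CCl4 libraries, against 1.95, 1.97, 10.1 and 0.13 TPM in ΔEGFR oil libraries. In WT it had 18.4, 51.8 and 55.3 TPM in WT CCl4 libraries, against 64.2, 0.32, 0.22 and 1.91 TPM in WT oil libraries. The ΔEGFR groups did not overlap, and the highest library of all was WT oil replicate 1. By edgeR, the log2 fold change was 2.35 ± 1.45 in ΔEGFR (adjusted p = 0.33) and 0.88 ± 1.48 in WT (adjusted p = 0.73), and without WT oil replicate 1 Cxcr4 rose in WT by 5.31 ± 1.2 (adjusted p = 0.00986). The WT log2 fold change of its ligand Cxcl12 in the same 14 libraries was −0.89 ± 0.35 (adjusted p = 0.074).

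Ccr2, the receptor of inflammatory monocytes, had 3.95, 9.43, 10.5 and 7.13 TPM in ΔEGFR CCl4 libraries, against 1.08, 1.63, 6.45 and 0.08 TPM in ΔEGFR oil libraries. For WT the values were 7.13, 10.7 and 16.8 TPM in WT CCl4 libraries, against 7.29, 0.09, 0.05 and 1.25 TPM in WT oil libraries. ΔEGFR oil replicate 3 and WT oil replicate 1 lay among the CCl4 libraries, and the log2 fold change was 1.39 ± 1.21 in ΔEGFR and 1.97 ± 1.29 in WT, or 4.19 ± 1.28 in WT without WT oil replicate 1 (adjusted p = 0.0301), where it passed.

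Cxcr2, Ccr1, Cxcr3 and Cxcr6 had their highest level in WT oil replicate 1. Cxcr2, the neutrophil receptor of Cxcl1, Cxcl2 and Cxcl5, had 0.81, 1.78, 3.68 and 2.18 TPM in ΔEGFR CCl4 libraries, against 1.87, 0.92, 3.85 and 0.04 TPM in ΔEGFR oil libraries. WT preparations held 3.11, 5.88 and 3.88 TPM in WT CCl4 libraries, against 68.01, 0.05, 0.07 and 0.61 TPM in WT oil libraries. The 68.01 TPM of WT oil replicate 1 stood beside its neutrophil marker sum of 5350 TPM, and the next highest library was at 5.88 TPM. The log2 fold change of Cxcr2 was −0.16 ± 1.61 in ΔEGFR and −2.43 ± 1.88 in WT, and its sign turned without that library, to 3.71 ± 1.23 (adjusted p = 0.0403). Ccr1, a myeloid receptor, had 1.6, 3.47, 3.8 and 2.14 TPM in ΔEGFR CCl4 libraries, against 0.62, 0.78, 2.04 and 0.02 TPM in ΔEGFR oil libraries, and 2.62, 4.95 and 6.16 TPM in WT CCl4 libraries, against 19.9, 0.05, 0.01 and 0.54 TPM in WT oil libraries. It showed the same turn, with −0.64 ± 1.62 in WT and 4.07 ± 1.29 without the library (adjusted p = 0.0344), against 1.23 ± 1.5 in ΔEGFR.

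Cxcr3, the T cell receptor of Cxcl9 and Cxcl10, had 1.51, 2.51, 2.59 and 1.65 TPM in ΔEGFR CCl4 libraries, against 0.45, 0.31, 1.25 and 0.08 TPM in ΔEGFR oil libraries, and 0.74, 3.3 and 3.02 TPM in WT CCl4 libraries, against 10.7, 0.14, 0.03 and 0.84 TPM in WT oil libraries. Its log2 fold change was 1.5 ± 1.22 in ΔEGFR and −0.79 ± 1.31 in WT, or 2.33 ± 0.99 without WT oil replicate 1. Cxcr6, the receptor of Cxcl16 on resident lymphocytes, had 0.41, 0.80, 1.23 and 0.69 TPM in ΔEGFR CCl4 libraries, against 0.22, 0.15, 1.16 and 0.06 TPM in ΔEGFR oil libraries, and 0.05, 1.25 and 1.56 TPM in WT CCl4 libraries, against 11.7, 0.10, 0.03 and 0.43 TPM in WT oil libraries. In its case the values were 0.59 ± 1.41 in ΔEGFR and −2.2 ± 1.62 in WT, or 1.84 ± 1.16 without that library. Ccr6, the receptor of Ccl20, had 0.13, 0.38, 1.7 and 0.72 TPM in ΔEGFR CCl4 libraries, against 0.05, 0.01, 0.22 and 0.02 TPM in ΔEGFR oil libraries, and 0.05, 0.78 and 1.0 TPM in WT CCl4 libraries, against 0.58, 0, 0 and 0.15 TPM in WT oil libraries. None of these 3 passed in either genotype with or without that library. In TPM the ΔEGFR groups of Cxcr3 did not overlap, while those of Cxcr6 and Ccr6 did, and the WT groups of all 3 overlapped. By CPM the ΔEGFR groups of Cxcr3 overlapped, with 1.32 the lowest CCl4 value and 1.33 the highest oil value. The other 9 tested signalling receptors, Ccr3, Ccr4, Ccr7, Ccr8, Ccr9, Ccr10, Cxcr1, Cxcr5 and Xcr1, had their highest level at 0.24 to 7.52 TPM, and only Ccr7 passed in any of these comparisons, in WT without WT oil replicate 1.

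Atypical receptors were low. Ackr3, which binds Cxcl12, had 0.44, 1.5, 0.52 and 0.51 TPM in ΔEGFR CCl4 libraries, against 0.14, 0.17, 0.11 and 0.01 TPM in ΔEGFR oil libraries. In WT it had 1.31, 0.44 and 0.33 TPM in WT CCl4 libraries, against 0.14, 0, 0 and 0.04 TPM in WT oil libraries. Treated and oil libraries did not overlap in either genotype, with a log2 fold change of 2.08 ± 1.0 in ΔEGFR (adjusted p = 0.216) and 3.35 ± 1.11 in WT (adjusted p = 0.0641), and 5.09 ± 1.21 in WT without WT oil replicate 1 (adjusted p = 0.0119). Ackr1, known from venous endothelium and red cells, had 2.94, 4.86, 1.38 and 0.77 TPM in ΔEGFR CCl4 libraries, against 1.78, 2.3, 0.05 and 0.12 TPM in ΔEGFR oil libraries, and 3.38, 0.48 and 1.63 TPM in WT CCl4 libraries, against 4.33, 0.35, 0.21 and 1.48 TPM in WT oil libraries, with log2 fold changes of 0.46 ± 1.14 in ΔEGFR and −0.24 ± 1.23 in WT. Its gene model overlaps Cadm3 on the same strand, so its counts are uncertain. Ackr2 ran from 0.62 to 2.34 TPM and Ackr4 from 0.11 to 1.46 TPM over the 15 libraries, and neither passed. Ackr4 overlaps Acad11 on the opposite strand.

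In ΔEGFR the summed receptor level separated treated from oil libraries and the summed ligand level did not. Single members did not all follow their sum. By CPM the ligands Ccl6 and Cxcl16 separated in ΔEGFR, while the receptors Ccr2, Cxcr2, Cxcr6 and Ccr6 overlapped. The atypical receptors alone summed to 3.44 to 9.86 TPM in ΔEGFR CCl4 libraries, against 0.98 to 4.43 TPM in ΔEGFR oil libraries, and overlapped. Summed over the 23 signalling and atypical receptors, the level was 53.3 to 132 TPM in ΔEGFR CCl4 libraries, against 1.68 to 37.2 TPM in ΔEGFR oil libraries, and 64.2 to 133 TPM in WT CCl4 libraries, against 3.58 to 220 TPM in WT oil libraries. The 38 ligands summed to 470 to 666 TPM in ΔEGFR CCl4 libraries, against 228 to 495 TPM in ΔEGFR oil libraries, and to 503 to 862 TPM in WT CCl4 libraries, against 193 to 979 TPM in WT oil libraries. The receptor sums did not overlap between the ΔEGFR groups, while the ligand sums did, and in WT the top of both oil ranges was replicate 1. Without that library the WT oil libraries summed to 3.58 to 20.9 TPM for receptors and 193 to 335 TPM for ligands, below every WT CCl4 library. The ratio of ligand to receptor TPM was 5.04 to 8.93 in ΔEGFR CCl4 libraries, against 13.3 to 136 in ΔEGFR oil libraries, and 5.24 to 7.83 in WT CCl4 libraries, against 4.45 to 62.8 in WT oil libraries.

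Among the ligands, the leukocyte class had the largest difference in mean level between CCl4 and oil. It summed to 309 ± 53.4 TPM in ΔEGFR CCl4 libraries, against 143 ± 106 TPM in ΔEGFR oil libraries, and to 419 ± 186 TPM in WT CCl4 libraries, against 160 ± 166 TPM in WT oil libraries (SD, n = 4, 4, 3 and 4). Most of the leukocyte class sum was Ccl6 and Ccl9. In the same order of groups, their means were 146, 26.8, 197 and 46.5 TPM for Ccl6 and 109, 93.6, 155 and 56.9 TPM for Ccl9. Ligands also reported in hepatocytes summed to 106 ± 45.4 TPM in ΔEGFR CCl4 libraries, against 85.1 ± 59.7 TPM in ΔEGFR oil libraries, and to 126 ± 23.4 TPM in WT CCl4 libraries, against 169 ± 211 TPM in WT oil libraries. The stromal, endothelial and epithelial class summed to 113 ± 32.4 TPM in ΔEGFR CCl4 libraries, against 116 ± 16.1 TPM in ΔEGFR oil libraries, and to 124 ± 25.4 TPM in WT CCl4 libraries, against 107 ± 27.4 TPM in WT oil libraries. Most of this class sum was Cxcl12, with means of 87.2, 85.2, 73.3 and 91.3 TPM in the same order of groups. Without WT oil replicate 1, the WT oil sums were 80 ± 53 TPM for the leukocyte class, 64.5 ± 33.3 TPM for the hepatocyte-reported class and 111 ± 31.8 TPM for the stromal, endothelial and epithelial class (SD, n = 3). The hepatocyte-reported class in WT was thus lower with CCl4 than with oil by its mean over all libraries and higher without that library. With all libraries, the CCl4 and oil ranges of each of the 3 classes overlapped in both genotypes.

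**Figure D4:**
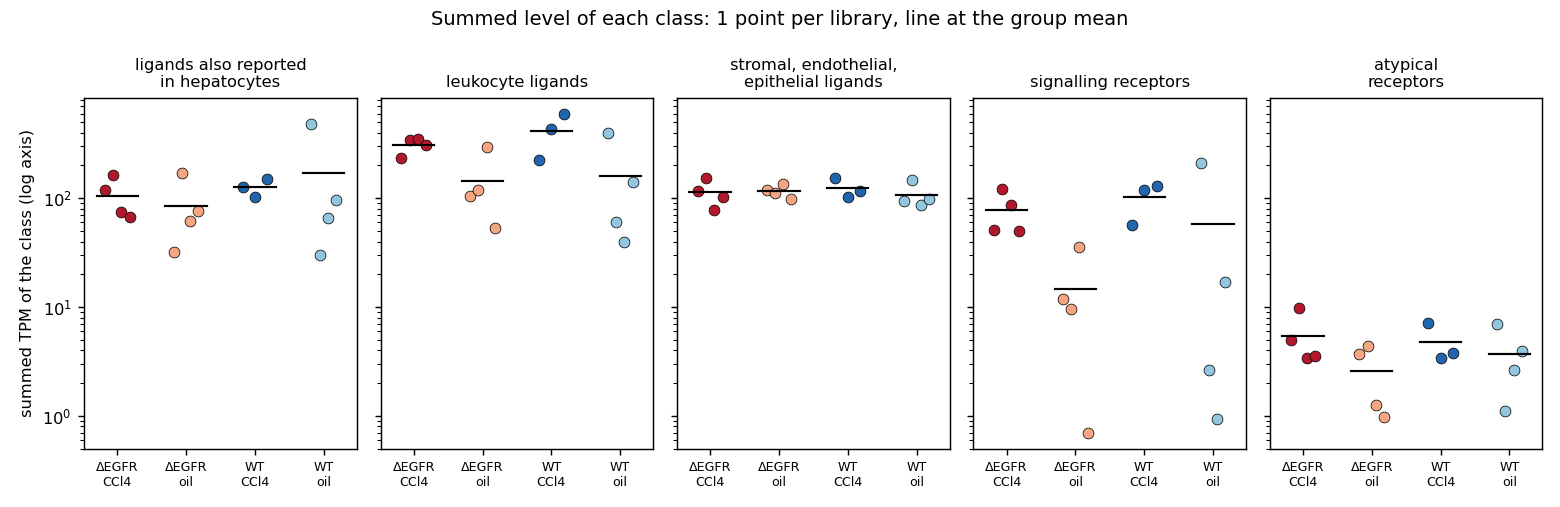
Summed TPM of each class on a shared log axis, in the 4 groups, with 1 point per library and a line at the group mean. The stromal, endothelial and epithelial ligands stay within 77.5 to 155 TPM, whereas the signalling receptors run from 0.70 to 213 TPM, lowest in ΔEGFR oil replicate 4 and highest in WT oil replicate 1.

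Medians of the log2 fold changes, over the members that passed the filter on low counts, were taken by class. In ΔEGFR they were 1.22 for the 12 leukocyte ligands, 0.05 for the 9 hepatocyte-reported ligands, −0.39 for the 7 other ligands and 1.48 for the 22 receptors, beside −0.02 for all genes tested. In WT they were 1.24, −0.31, −0.23 and −0.25 for the same classes, beside −0.03 for all genes. Without WT oil replicate 1 the WT medians were 2.48 for leukocyte ligands, 0.32 for hepatocyte-reported ligands, 0.12 for the other ligands and 2.33 for the 21 receptors then tested, beside 0.04 for all genes. The receptor median in WT thus changed sign with that 1 library, and the leukocyte ligand median did not. By overlap of CPM, 9 of 50 members were higher in every CCl4 library than in every oil library of ΔEGFR, as were 12.3% of all genes, and 11 of 50 in WT, as were 12.1% of all genes, or 20 of 50 and 24.6% without WT oil replicate 1. Ackr3, Ccl8, Cx3cr1 and Cxcl16 were among these in both genotypes. For Ccl8 in ΔEGFR this rests on 1 count in CCl4 replicate 4 (CPM 0.00799) against 1 count in oil replicate 3 (CPM 0.00693). Both were at 0.03 TPM, so in TPM the ΔEGFR groups of Ccl8 met. By CPM, lower in every CCl4 library were 0 members in ΔEGFR (9.32% of all genes) and 1 in WT, Cxcl11.

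**Figure D5:**
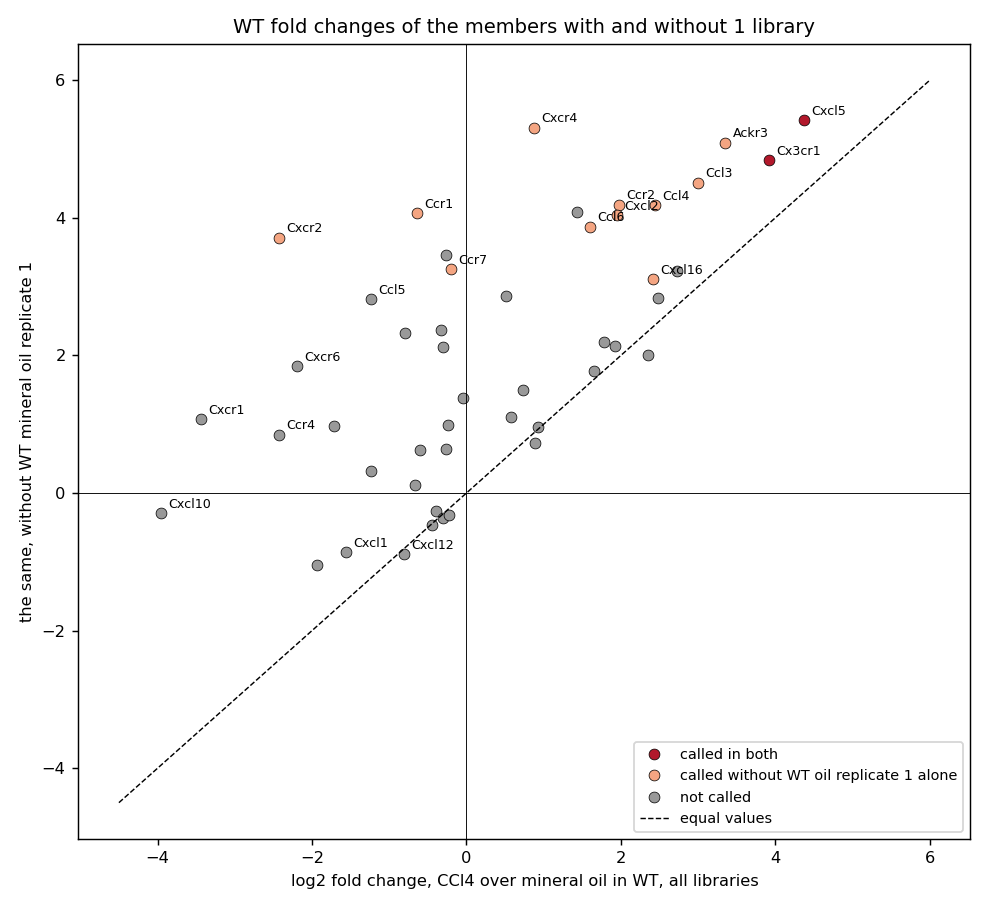
Log2 fold change for CCl4 over mineral oil in WT with all libraries (horizontal axis) and without WT oil replicate 1 (vertical axis), 1 point per member shown, coloured by whether edgeR called it. Cx3cr1 and Cxcl5 are called in both, and Cxcr2, Ccr1 and Ccr7 are negative with all libraries and positive and called without that library.

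No member was called between ΔEGFR and WT. Neither genotype comparison nor the interaction gave a called member by edgeR, DESeq2 or limma. Of all genes, edgeR called 0% in each, DESeq2 0.0111% in CCl4 and for the interaction, and limma 0.00556% for the interaction. At an unadjusted edgeR p under 0.05, 4 members were lower in ΔEGFR than in WT in mineral oil (Ccl8, Ccr4, Cxcl10 and Cxcr1), as were 4.12% of all genes, of 6.66% in either direction and 2.54% higher. In CCl4 that was 0 members, beside 2.29% of all genes, and for the interaction 1 member, Cxcl14, beside 3.16% of all genes. The 4 members named for mineral oil rest on 1 library or on few counts. WT oil replicate 1 held 13169 of the 13489 WT oil counts of Cxcl10, 253 of 261 of Ccr4 and 487 of 493 of Cxcr1. Ccl8 had 1 count in all ΔEGFR oil libraries and 9 in all WT oil libraries. In mineral oil the member median was −0.58 with all libraries and 0.86 without WT oil replicate 1, so its sign rested on that library. In CCl4, Cxcl2 and Cxcl14 were lower in every ΔEGFR library than in every WT library by CPM, as were 2.38% of all genes, and Cxcl2 had a log2 fold change of −1.58 ± 1.17 (adjusted p = 1).

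Other genes that handle chemokines or carry their signals were read beside the members. Of 37 such genes, 3 rose and 1 fell with CCl4 in ΔEGFR, and 7 rose and 3 fell in WT, beside 1.77% of all genes higher and 2.38% lower in ΔEGFR and 5.31% higher and 7.2% lower in WT. Pf4, which encodes platelet factor 4, a CXC chemokine outside the naming rule that is made by megakaryocytes and some macrophages, rose in both. It had 22.6, 43.7, 23.03 and 17.3 TPM in ΔEGFR CCl4 libraries, against 1.33, 0.62, 1.24 and 0.44 TPM in ΔEGFR oil libraries. Its WT levels were 23.2, 25.3 and 29.6 TPM in WT CCl4 libraries, against 0.97, 0.29, 0.22 and 1.99 TPM in WT oil libraries. No CCl4 library came near an oil library, WT oil replicate 1 included, and the log2 fold change was 4.27 ± 0.63 in ΔEGFR (adjusted p = 0.00874) and 4.48 ± 0.66 in WT (adjusted p = 0.00382). Adam10, a protease that sheds Cx3cl1 and Cxcl16, rose by 0.97 ± 0.25 in ΔEGFR (adjusted p = 0.0437) and 0.97 ± 0.26 in WT (adjusted p = 0.0308). Mmp2, a matrix protease of stromal cells, rose by 2.72 ± 0.71 in ΔEGFR (adjusted p = 0.0495) and 2.41 ± 0.74 in WT (adjusted p = 0.049). In WT the elastase of macrophages, Mmp12, rose by 7.75 ± 1.36 (adjusted p = 0.00638). Rarres2, which encodes the leukocyte attractant chemerin made by hepatocytes, fell in both, with −1.37 ± 0.30 in ΔEGFR (adjusted p = 0.0299) and −1.36 ± 0.33 in WT (adjusted p = 0.0197). Dpp4, a peptidase that trims and inactivates chemokines such as Cxcl12 and Cxcl10, fell in WT by 1.31 on the log2 scale (adjusted p = 0.00736).

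Of 34 tested genes of the pathways that induce chemokines, 1 fell and 0 rose with CCl4 in ΔEGFR, and 1 rose and 2 fell in WT, beside the same shares of all genes. Stat3, the transcription factor of interleukin 6 signals, fell in both, with −0.79 ± 0.16 in ΔEGFR (adjusted p = 0.0229) and −0.67 ± 0.17 in WT (adjusted p = 0.0256). Irf5, an interferon regulatory factor of myeloid cells, rose in WT by 1.09 ± 0.24 (adjusted p = 0.0137) and had 0.86 ± 0.23 in ΔEGFR (adjusted p = 0.0502). Il1r1, the interleukin 1 receptor, fell in WT, with −1.59 ± 0.40 (adjusted p = 0.0226).

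The 13 members that were not tested had few reads. Ccl1, Ccl11, Ccl12, Ccl20, Ccl21a, Ccl21b, Ccl27b, Cxcl17 and Ccr1l1 had at most 0.62 TPM in any library, and Cxcl15, Ccl26 and the pseudogenes Ccl19-ps1 and Ccl19-ps3 had 0 counts in all 15. Ccl12, Ccl21a, Ccl21b, Ccl27b and Ccr1l1 have close copies among the members, so a low count there can also reflect how reads were shared.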

How the data were processed

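RNA of 15 hepatocyte libraries was prepared with a kit for stranded mRNA, per the labels. The submitters' processing notes name STAR 2.7.8a, RSEM 1.3.0 and the GRCm39 build; annotation release and strand setting are not given in the sources used here. The deposited tables hold RSEM expected counts for 56953 genes, and the TPM values printed are those the authors deposited beside them. Symbols came by Ensembl ID from a table of another mouse build (91.4% of IDs named). Expected counts were rounded and fitted with edgeR 4.0.16 (R 4.3.3): filterByExpr by group (minimum count 10, minimum total 15), TMM factors, 1 mean per group over all 15 libraries, robust quasi-likelihood, Benjamini-Hochberg adjustment over 17975 genes. DESeq2 1.42.0 and limma 3.58.1 on log2(TPM + 1) were alternatives. Members, classes, marker and pathway lists were chosen with earlier results of these data known. Full values are given for called members, the 12 ligands and 8 receptors with the highest mean TPM, and 8 ligand and receptor pairs, except 1 member that is not reported here; other members named with values were chosen after their values were seen. Replicates were numbered in deposit order, and p-values measure the spread between libraries, which may be technical; within-group correlations of log2 CPM were 0.893 to 0.989. The fits were tested on simulated data with known changes. Intervals cover counting error only.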

Additional observations from a re-analysis of the deposited data

Results flagged for a closer look

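In groups of 4 libraries, 20 of the 78 sets of TPM values looked at had a highest or lowest library whose gap to the next, over the range, was above Dixon's critical value of 0.829. Chance flags about 1 in 20 groups of normally distributed values, a rate that need not hold for TPM. A group with all but 1 value at 0 is always flagged, so the number flagged cannot be set against that rate. WT oil replicate 1 accounted for 11: Cxcl10 at 226 TPM (others 1.02 to 8.88), Ccl5 at 175 TPM (others 0.46 to 7.36), Ccl6 at 158 TPM (others 1.85 to 21.5), Cxcr2 at 68.01 TPM (others 0.05 to 0.61), Cxcr4 at 64.2 TPM (others 0.22 to 1.91), Ccl2 at 20.1 TPM (others 0.11 to 3.08), Ccr1 at 19.9 TPM (others 0.01 to 0.54), Cxcr6 at 11.7 TPM (others 0.03 to 0.43), Cxcr3 at 10.7 TPM (others 0.03 to 0.84), Cxcl2 at 10.6 TPM (others 0.11 to 1.88) and Ccr2 at 7.29 TPM (others 0.05 to 1.25). Each of these was the highest of its group. The same library had the highest sums of neutrophil markers (5350 TPM) and of T and natural killer cell markers (212 TPM), whose part in these values was not tested.

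ΔEGFR oil replicate 3 stood above its group for 5 members: Ccl3 at 10.4 TPM (others 0.17 to 1.21), Cx3cr1 at 3.81 TPM (others 0.06 to 0.65), Cxcr6 at 1.16 TPM (others 0.06 to 0.22), Cxcl5 at 0.07 TPM (others 0 to 0.01) and Ccl8 at 0.03 TPM (others at 0). ΔEGFR oil replicate 2 stood above its group for Cxcl10 at 21.3 TPM (others 1.73 to 4.93) and Ccl20 at 0.04 TPM (others at 0). In WT oil, replicate 2 was highest for Cxcl12 at 127 TPM (others 77.95 to 80.4) and replicate 4 for Ccl20 at 0.04 TPM (others at 0). The values of Ccl8, Ccl20 and Cxcl5 rest on a few counts.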

How the results depend on the processing

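No paired analysis was possible because the labels carry no replicate numbers and name no animal, litter or batch that libraries share. For CCl4 in WT, 2 members were called; the count was 4 with no scaling factor, 6 with DESeq2 (5 higher, and Cxcl11 lower), 11 with limma on log2(TPM + 1), 9 with the leukocyte marker score as a covariate (5 higher, and Ccr4, Cxcr1, Cxcr6 and Xcl1 lower), 1 each with no low-count filter, with at least 1 CPM in 3 libraries and with only the groups compared, and 0 to 13 when each library was left out in turn, 13 being without WT oil replicate 1. For CCl4 in ΔEGFR, 1 member was called; the count was 4 with DESeq2 (Ccl8, Cx3cr1, Cxcl16 and Xcr1), 6 with limma, 0 with the 1 CPM filter, with only the groups compared and with the leukocyte covariate, and 0 to 1 in the leave-outs. RLE and upper-quartile factors and a depth covariate gave 2 to 3 calls in WT and 1 in ΔEGFR. The members lower in WT with the leukocyte covariate had most of their WT oil counts in WT oil replicate 1. The genotype comparisons and the interaction stayed at 0 calls in every alternative run; the interaction could not be fitted with only the groups compared. Fits with no scaling factor moved the median of all genes to 0.44 in ΔEGFR and 0.40 in WT, and the WT median of the members to 0.18. The following uncalled log2 fold changes turned sign, and the cause was not tested. With no scaling factor, values in WT were 0.02 for Ackr1 and 0.21 for Ccl27a, and in ΔEGFR 0.38 for Ccl2, 0.09 for Ccl27a, 0.20 for Ccl9, 0.21 for Cxcl10 and 0.20 for Cxcr2. With limma, values in WT were 0.26 for Ackr1, 0.97 for Ccl2, 0.23 for Ccl27a, 1.62 for Ccl5, 1.15 for Ccr1, 0.09 for Cxcl9, 0.63 for Cxcr2 and 0.47 for Cxcr3, and in ΔEGFR 0.94 for Ccl2, 0.16 for Ccl27a, 0.25 for Ccl9, 0.27 for Cxcl10, 0.25 for Cxcl14 and 0.36 for Cxcr2. With the depth covariate, values in WT were 0.25 for Ackr1, 0.61 for Ccl2, 0.24 for Ccl5, 0.83 for Ccr1 and 0.21 for Cxcr3, and in ΔEGFR 0.58 for Ccl2, 0.51 for Cxcl10 and 1.06 for Cxcr2. With the leukocyte covariate, values in WT were 0.17 for Ccl2 and 0.18 for Ccr1, and in ΔEGFR −0.28 for Ackr1, −1.23 for Ccl5 and for Cxcr6, −0.75 for Ccr1, −0.58 for Cxcl2, −0.55 for Cxcl9 and −0.08 for Cxcr3. Ccl2 in ΔEGFR was 0.04 with RLE factors, upper-quartile factors and DESeq2 and 0.01 with no low-count filter. Leaving out each library in turn gave ranges across 0 in WT of −1.13 to 0.99 for Ackr1, −0.70 to 2.12 for Ccl2, −1.64 to 2.82 for Ccl5, −1.06 to 4.07 for Ccr1, −1.58 to 0.32 for Cxcl9, −2.85 to 3.71 for Cxcr2, −1.21 to 2.33 for Cxcr3 and −2.61 to 1.84 for Cxcr6. In ΔEGFR they were −0.52 to 1.74 for Ccl2, −0.17 to 0.68 for Ccl5, −0.40 to 0.17 for Ccl9, −0.71 to 0.70 for Cxcl10 and −0.58 to 0.34 for Cxcr2. Of the single members' alternatives, 1250 kept direction and side of the threshold, 35 gained a call, 28 lost one and 68 turned sign. Members under about 1 TPM rest on few counts and their fold changes are imprecise.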
